A study of Mus musculus with 24 samples.

Results

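Liver RNA of mice that drank a sugar solution on a normal diet was compared with liver RNA of mice that drank plain water on the same diet. The comparison takes 12 of the 24 samples of the study, chosen by their titles: 6 high-sugar samples (normal diet, a drink holding 23% w/v sugar) and 6 control samples (normal diet, plain water). The other 12 samples came from a high-fat diet, 6 with the sugar drink (high-fat high-sugar) and 6 with plain water (high-fat), and entered the model and the test of the difference between diets. All samples were liver of male C57BL/6J mice aged 16 weeks after 10 weeks of feeding, with no transgene or deleted gene in any group. RNA was converted to biotin-labelled cRNA and hybridised to an Illumina bead array. The labels number the replicates of a group from 1 to 6 and do not say that each is a separate animal, so the p-values here rest on a spread between samples that may be technical.

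Dietary sugar reaches the liver through the portal vein. Fructose is phosphorylated there by ketohexokinase and enters glycolysis below its main control point, and surplus carbon can be turned into fatty acids by de novo lipogenesis, which the transcription factors SREBP-1c and ChREBP are known to drive. Stearoyl-CoA desaturase and the elongases then shape the fatty acids that are stored as triglyceride or exported in lipoproteins. The liver also makes bile acids and plasma proteins and clears foreign compounds through cytochrome P450 enzymes, many of which are under the nuclear receptors CAR and PXR.

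The 12 arrays held between 17976 and 18009 probes above the noise limit, a narrow range because the deposited values were quantile-normalised. Correlations of log2 values were 0.992 to 0.996 within the high-sugar group, 0.987 to 0.994 within the control group and 0.980 to 0.987 between the groups. The first principal component of these 12 samples held 41.1% of the variance and put all 6 high-sugar samples on one side of all 6 control samples. No label gives a hybridisation date or chip, so a batch that followed the drink could not be told apart from it. Of 10 hepatocyte markers 9 passed the filter on dim probes, and their summed intensity was 94638 to 98803 in high-sugar samples and 87425 to 97267 in control samples. By the test described below 3 of the 9 were higher, 1 was lower and 5 did not pass. Those shares were 33.3% and 11.1%, beside 14.8% and 14% of all genes. Alb was among the markers that were higher, and Cps1 was the lower one. Apoa1, the main protein of high-density lipoprotein and an abundant hepatocyte transcript, had an intensity of 20452 to 25862 (median 21672) in high-sugar samples and 20452 to 24911 (median 22829.7) in control samples, and these ranges overlapped (log2 difference −0.021 ± 0.073, which did not pass the test). No skeletal muscle marker passed the filter. In whole tissue, a lower signal from fewer cells of a type cannot be told from less RNA per cell.

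Differences are given as high-sugar minus control on the scale of log2(intensity + 32), with the standard error (n = 6 per group) and the p-value of limma adjusted over all 11115 genes tested; the threshold was 0.05. "Rose" and "fell" refer to that test. On this scale 3209 genes changed (28.9% of those tested), 1650 of them higher (14.8%) and 1559 lower (14%). Each count of changed list members below is to be read beside these shares. Most changes were small. At least 1.5-fold changes were seen for 469 genes (4.22%), 311 that rose (2.8%) and 158 that fell (1.42%), and at least 2-fold changes for 48 (0.432%) and 19 (0.171%). All 6 high-sugar values lay above all 6 control values in 830 genes (7.47%) and below them in 506 (4.55%). The median difference over all genes was −0.013, and 293 of the changed genes had a group mean below the noise limit, where the size of a change depends on the offset. The share that changed was 12.8% among the 2779 genes of lowest mean intensity and 34.8% among the 2779 of highest.

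**Figure D1:**
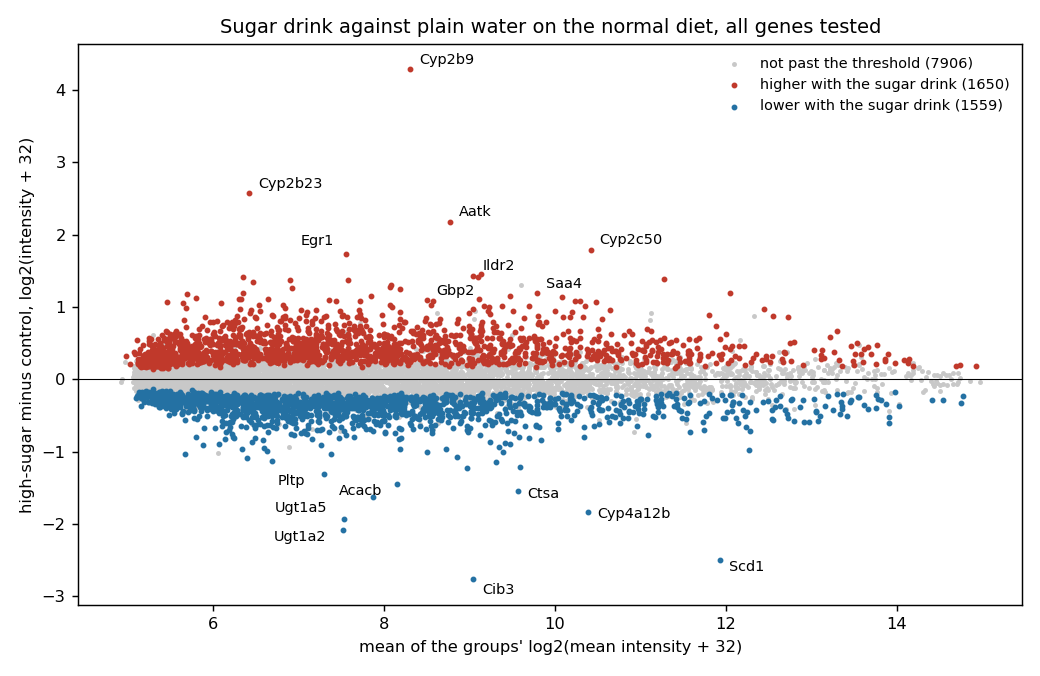
Difference between high-sugar and control samples for each of the 11115 genes tested (y axis, log2 of intensity + 32) against the mean log2 intensity of the groups (x axis). The 1650 red genes rose and the 1559 blue genes fell; Cyp2b9 stands highest at 4.28 and Cib3 lowest at −2.76.

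The largest rises were in cytochrome P450 genes of the Cyp2b and Cyp2c families, which oxidise drugs and steroids, and in Aatk, a kinase gene. Cyp2b9 had an intensity of 515 to 2813 (median 1352) in high-sugar samples and 0.0156 to 65.1 (median 39.1) in control samples. Every high-sugar sample lay above every control sample (4.28 ± 0.60, adjusted p = 7.28e-06), and 5 of 6 control values were above the noise limit. Cyp2b23 was at 52.02 to 369 (median 205) in high-sugar samples and −2.63 to 3.01 (median 1.13) in control samples. No control sample rose above the noise limit for this probe, so the difference was at least 24-fold in intensity (2.57 ± 0.45, adjusted p = 0.000114). Aatk was at 753 to 1076 (median 868) in high-sugar samples and 129.9 to 264 (median 159) in control samples with no overlap (2.18 ± 0.14, adjusted p = 6.16e-11). Cyp2c50 was at 1957 to 3209.7 (median 2419) in high-sugar samples and 503 to 884 (median 674) in control samples, also with no overlap (1.79 ± 0.16, adjusted p = 9.35e-09). The probes of these P450 families can take up signal of near-identical genes, so a value may belong to a relative of the gene named.

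Egr1, an immediate early transcription factor, was at 91.7 to 550.0 (median 306) in high-sugar samples and 22.3 to 102 (median 70.4) in control samples. The groups overlapped for Egr1, and the high-sugar samples spread widely (1.73 ± 0.34, adjusted p = 0.000321). Ildr2, an immunoglobulin-domain receptor gene, was at 666 to 1166 (median 762) in high-sugar samples and 212 to 389 (median 276) in control samples and Nrep at 552 to 1096 (median 896) in high-sugar samples and 105 to 487 (median 399.6) in control samples. Neither gene's groups overlapped (1.43 ± 0.19, adjusted p = 3.25e-06 for Ildr2; 1.45 ± 0.36, adjusted p = 0.00333 for Nrep). Tpm2, which encodes a tropomyosin of the actin cytoskeleton, was at 142 to 219.9 (median 149) in high-sugar samples and 30.6 to 51.6 (median 42.7) in control samples, again apart (1.37 ± 0.12, adjusted p = 1.71e-08). Mup20, a male-biased major urinary protein gene from a family of near-identical copies, was at 2880.2 to 5492 (median 3832) in high-sugar samples and 1002 to 2112 (median 1385) in control samples without overlap (1.39 ± 0.21, adjusted p = 2.44e-05). Pabpc1l, a relative of the poly(A)-binding protein gene, rose on a dim probe (1.41 ± 0.16, adjusted p = 6.73e-07). Clstn3, a calsyntenin gene, and Acin1, which encodes a nuclear RNA-binding protein, rose on their brightest probe (1.41 ± 0.18 and 1.37 ± 0.12), while the other probe of each gave 0.036 and 0.0060 and did not pass. The other Clstn3 probe was dim (means 18.8 in high-sugar and 17.2 in control samples). The other Acin1 probe lay near the noise limit (6.59 and 6.30), so its value says little.

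The largest falls included 3 genes of lipid metabolism. Cib3, a gene of the calcium and integrin-binding family, was at 82.3 to 257 (median 180.5) in high-sugar samples and 642 to 1974 (median 1329.7) in control samples. All 6 high-sugar values were below all 6 control values (−2.76 ± 0.37, adjusted p = 3.65e-06). Scd1, which puts the first double bond into saturated fatty acids, was at 710.1 to 3337 (median 1549) in high-sugar samples and 6478 to 10537 (median 9280.2) in control samples. The high-sugar group lay wholly below the control group (−2.50 ± 0.29, adjusted p = 6.59e-07). Acacb, the acetyl-CoA carboxylase of the outer mitochondrial membrane whose product inhibits fatty acid entry into mitochondria, was at 96.3 to 168 (median 145) in high-sugar samples and 297 to 550.0 (median 458) in control samples (−1.45 ± 0.14, adjusted p = 5.08e-08). Pltp, the plasma phospholipid transfer protein, was at 51.8 to 83.96 (median 64.9) in high-sugar samples and 126 to 329.9 (median 211) in control samples (−1.31 ± 0.19, adjusted p = 1.19e-05). Neither Acacb nor Pltp overlapped between the groups. Ugt1a2 and Ugt1a5, glucuronosyltransferase genes that share their later exons, fell together (−2.08 ± 0.28 and −1.94 ± 0.32; another Ugt1a5 probe gave −1.64). Cyp4a12b, a male-biased fatty acid hydroxylase with a near-identical neighbour, was at 253 to 1212 (median 675) in high-sugar samples and 1994 to 2622 (median 2366) in control samples with no overlap (−1.84 ± 0.42, adjusted p = 0.00162).

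Ppp1r3g, a subunit that directs protein phosphatase 1 to glycogen, fell with a large standard error (−1.63 ± 0.52, adjusted p = 0.0197), and another probe gave −0.47. The stress-responsive genes Plk3, a kinase (−1.22 ± 0.24, adjusted p = 0.000343), and Gadd45g (−1.14 ± 0.31, adjusted p = 0.00593; −2.04 on another probe) fell with overlap between the groups, and Hsbp1l1 fell without overlap (−1.13 ± 0.19, adjusted p = 7.41e-05). Ctsa, a lysosomal carboxypeptidase, fell on its brightest probe (−1.54 ± 0.17, adjusted p = 3.93e-07), while 4 other probes gave 0.11, −0.028, 0.22 and −0.022, none past the threshold. The probe that gave 0.11 was not dim (means 366 in high-sugar and 343 in control samples), so the fall rests on 1 probe.

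**Figure D2:**
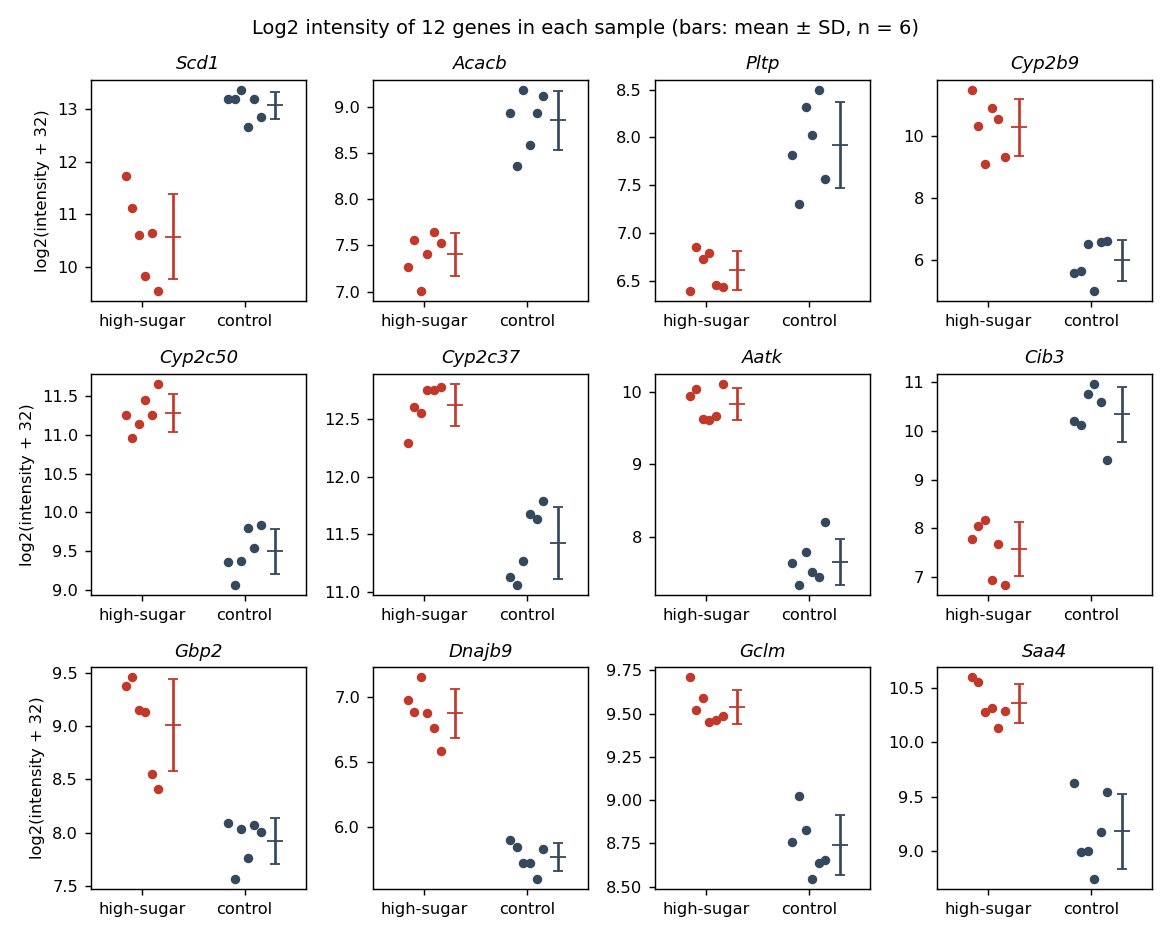
Log2(intensity + 32) of 12 genes in each sample, with 6 high-sugar samples on the left and 6 control samples on the right of each panel; bars are the mean ± SD. In all 12 panels the high-sugar samples lie wholly below (Scd1, Acacb, Pltp, Cib3) or wholly above (the other panels) the control samples.

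Among genes of sugar entry and use more fell than rose. Of 23 genes of hexose entry, fructolysis and glycolysis, 15 were tested; 1 rose and 4 fell (6.67% and 26.7%, beside 14.8% and 14% of all genes), with a median difference of 0.0031. Khk, the ketohexokinase that commits fructose to the liver, was at 5241 to 9129.5 (median 7258) in high-sugar samples and 8266 to 13165 (median 9484) in control samples. Khk fell with overlapping groups (−0.51 ± 0.16, adjusted p = 0.0148), and its other probe gave −0.55. Gpd1, which makes the glycerol backbone of triglyceride, was at 347 to 563 (median 394) in high-sugar samples and 572 to 1003 (median 799.9) in control samples, without overlap (−0.86 ± 0.14, adjusted p = 5.46e-05). Gapdh fell by less, also without overlap (−0.38 ± 0.066, adjusted p = 9.78e-05), as did the sugar transporter gene Slc2a8 with overlap (−0.28 ± 0.081, adjusted p = 0.0111; its other probe gave 0.025). Slc2a2, the main glucose and fructose transporter of the hepatocyte membrane, rose (0.49 ± 0.17, adjusted p = 0.0335), and 0.54 and 0.82 on 2 other probes. That call of Slc2a2 ended when any 1 of 5 samples was left out, with 0.29 to 0.48 in those fits. The 3 genes read as signs of carbohydrate signalling did not pass: Mlxipl, which encodes ChREBP (−0.15 ± 0.12), and its targets Pklr (0.26 ± 0.12) and Txnip (0.40 ± 0.19). Another probe of each gave 0.24 for Mlxipl, 0.36 for Pklr and 0.30 for Txnip, and did not pass either.

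In the pentose phosphate pathway and NADPH supply, 3 of 6 tested genes fell and 1 rose. That is 50% and 16.7%, beside 14% and 14.8% of all genes. Tkt, the transketolase of the non-oxidative branch, was at 688 to 1021 (median 758) in high-sugar samples and 1002 to 1549.8 (median 1298) in control samples with overlap (−0.60 ± 0.13, adjusted p = 0.00116). Pgls, the lactonase of the oxidative branch, fell on its brightest probe (−0.44 ± 0.066, adjusted p = 1.67e-05), while 2 others gave 0.067 and −0.14. The pentose isomerase gene Rpia fell by less (−0.28 ± 0.095). Idh1, the cytosolic isocitrate dehydrogenase that yields NADPH, rose (0.37 ± 0.093, adjusted p = 0.00368).

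Among 14 tested genes of de novo lipogenesis and desaturation, 5 fell, 1 rose and 8 did not pass (median −0.15). That is 35.7% and 7.14%, beside 14% and 14.8% of all genes. The 5 that fell act on finished fatty acids or on malonyl-CoA at the mitochondrion: Scd1 and Acacb as above, the elongase Elovl6, and the desaturases Fads1 and Fads2. Elovl6, which adds carbons to palmitate, was at 166 to 323 (median 207) in high-sugar samples and 306 to 769 (median 458) in control samples, and only the edges of the groups overlapped (−1.01 ± 0.20, adjusted p = 0.000442). Fads2, the first desaturase of polyunsaturated fatty acid synthesis, was at 1090.1 to 1612 (median 1456) in high-sugar samples and 1875 to 2498 (median 2059) in control samples without overlap (−0.60 ± 0.11, adjusted p = 0.000163), and its other probe fell further (−1.18). Fads1 fell by less (−0.29 ± 0.088, adjusted p = 0.0145; other probe −0.087). Acly, which supplies cytosolic acetyl-CoA, was at 1183 to 1857 (median 1552) in high-sugar samples and 969 to 1585 (median 1318) in control samples, with overlap, and did not pass (0.25 ± 0.13). Fasn, the fatty acid synthase, was read by a probe near the noise limit in all 12 samples, so its value (−0.075 ± 0.094, not past the threshold) says little. Srebf1, which encodes SREBP-1, rose (0.41 ± 0.13, adjusted p = 0.0172), with a control group that reached into the high-sugar range.

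Of 20 tested genes of triglyceride synthesis and lipid droplets, 5 fell, 1 rose and 14 did not pass. That is 25% and 5%, beside 14% and 14.8% of all genes. Dgat1, one of the enzymes of the last step of triglyceride synthesis, was at 93.2 to 138 (median 128) in high-sugar samples and 146 to 236 (median 188) in control samples, without overlap (−0.51 ± 0.095, adjusted p = 0.000207). Plin5, a droplet protein that sits at contacts with mitochondria, was at 694 to 1202 (median 1059.7) in high-sugar samples and 1123 to 2172 (median 1550.5) in control samples with slight overlap (−0.67 ± 0.16, adjusted p = 0.00301, and −0.66 on another probe). The lipase genes Pnpla2 (−0.33 ± 0.11) and Mgll (−0.42 ± 0.13) also fell. Lpin2, a phosphatidate phosphatase, fell on its brightest probe (−0.88 ± 0.18, adjusted p = 0.000491), while 3 others gave −0.17, 0.11 and −0.39 and did not pass. Plin3, a droplet coat protein, rose (0.36 ± 0.12).

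No tested gene of lipoproteins and lipid uptake rose, and 6 of 18 fell (33.3%, beside 14% of all genes), with a median of −0.061. Besides Pltp these were Apoe and Apoc2, ligands and cofactors of lipoprotein clearance, Apoa4, and Mttp and Tm6sf2, which act in the loading of very-low-density lipoprotein. Apoe was at 18069.8 to 22709.6 (median 19186) in high-sugar samples and 22288 to 25471 (median 24078) in control samples, and the highest high-sugar value reached into the control range (−0.28 ± 0.059, adjusted p = 0.000662). Apoc2 was at 789 to 1004 (median 952) in high-sugar samples and 873 to 1657 (median 1333) in control samples, with overlap (−0.50 ± 0.12, adjusted p = 0.00176; −1.11 on another probe). Mttp fell by 0.52, Tm6sf2 by 0.43 and Apoa4 by 0.58 on the log2 scale.

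In mitochondrial fatty acid oxidation and ketogenesis 6 of 17 tested genes rose, 1 fell and 10 did not pass (median 0.20). That is 35.3% and 5.88%, beside 14.8% and 14% of all genes. Acadm, the medium-chain acyl-CoA dehydrogenase, was at 12652 to 19043 (median 14901) in high-sugar samples and 10113 to 12722 (median 10594) in control samples, with the lowest high-sugar value just inside the control range (0.45 ± 0.083, adjusted p = 0.000203). Hadhb, a subunit of the trifunctional protein of β-oxidation, was at 119 to 197 (median 148) in high-sugar samples and 57.5 to 82.7 (median 65.8) in control samples, without overlap (0.89 ± 0.18, adjusted p = 0.000603). Etfa, which carries electrons from the dehydrogenases, was at 14929.8 to 18069.8 (median 16050.4) in high-sugar samples and 12353 to 14287 (median 13905) in control samples, without overlap (0.25 ± 0.059, adjusted p = 0.00179), and 2 other probes gave 1.20 and 1.22. Its partner Etfb was the 1 member that fell (−0.17 ± 0.055). Cpt1a, the carnitine acyltransferase of mitochondrial entry, did not pass on a probe near the noise limit (−0.24 ± 0.11).

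Of 19 tested PPARα targets and genes of peroxisomal and omega oxidation, 4 rose and 1 fell (21.1% and 5.26%, beside 14.8% and 14% of all genes). Fgf21, the gene of a fasting and sugar-responsive hormone, was at 341 to 764 (median 427) in high-sugar samples and 218 to 394 (median 245) in control samples. Its groups overlapped through 1 control sample that stood above the other 5 (0.77 ± 0.21, adjusted p = 0.00789). Acot4, a peroxisomal thioesterase, was at 142 to 169 (median 152) in high-sugar samples and 67.1 to 94.3 (median 78.01) in control samples, without overlap (0.76 ± 0.17, adjusted p = 0.00113). The peroxisomal genes Acaa1a (0.26 ± 0.073) and Decr2 (0.50 ± 0.15; 0.32 without control replicate 1) rose too. Crat, the carnitine acetyltransferase, fell on its brightest probe (−0.63 ± 0.14, adjusted p = 0.00106), while 2 other probes gave −0.045 and −0.16.

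In cholesterol synthesis 6 of 18 tested genes rose, 1 fell and 11 did not pass (median 0.22). That is 33.3% and 5.56%, beside 14.8% and 14% of all genes. Ebp, a sterol isomerase, was at 1093 to 1415 (median 1202) in high-sugar samples and 584 to 801 (median 691) in control samples, without overlap (0.80 ± 0.096, adjusted p = 9.92e-07). Msmo1, a sterol methyl oxidase, was at 569.6 to 1178 (median 647) in high-sugar samples and 167 to 618 (median 439.7) in control samples, with overlap (1.00 ± 0.27, adjusted p = 0.00708). Hsd17b7 rose as well (0.42 ± 0.14). Lss, which forms lanosterol, rose on 1 probe (0.49 ± 0.13, adjusted p = 0.00440) and fell on the other (−0.29, past the threshold), so its direction is unsettled. Tm7sf2, a sterol reductase, fell (−0.24 ± 0.087), a call lost when any 1 of 10 samples was left out. Idi1 (0.21 ± 0.074) and Dhcr7 (0.32 ± 0.10) rose on dim probes.

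Of 17 tested bile acid genes 7 rose (41.2%, beside 14.8% of all genes) and 1 fell, with a median of 0.24. Hsd3b7, an enzyme of the steroid ring, was at 13443 to 18391 (median 16801) in high-sugar samples and 11258 to 12118 (median 11795) in control samples, without overlap (0.48 ± 0.066, adjusted p = 7.01e-06). Baat, which joins bile acids to taurine and glycine, was at 61.5 to 83.1 (median 69.7) in high-sugar samples and 22.3 to 34.3 (median 28.1) in control samples, without overlap (0.79 ± 0.13, adjusted p = 7.90e-05). The uptake carrier Slco1b2 was at 13884 to 15839 (median 15049.6) in high-sugar samples and 10537 to 13443 (median 11725) in control samples (0.35 ± 0.064, adjusted p = 0.000193; 1.21 on another probe), also apart. The canalicular pumps Abcb11 (0.42 ± 0.097) and Abcb4 (0.41 ± 0.12) rose, and the pump Abcc2 fell (−0.47 ± 0.096). Nr1h4, the bile acid receptor FXR, rose by less (0.26 ± 0.085, adjusted p = 0.0192), a call that ended without high-sugar replicate 2 (0.22). Cyp7a1, the rate-limiting enzyme of bile acid synthesis, was at 1434 to 4502 (median 2679) in high-sugar samples and 231 to 2959.8 (median 1704) in control samples and did not pass (0.91 ± 0.38), with 1 control sample far below the rest.

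Gluconeogenic genes changed in both directions, 2 higher and 3 lower of 9 tested (22.2% and 33.3%, beside 14.8% and 14% of all genes). Ppargc1a, a coactivator of these genes and of mitochondrial biogenesis, was at 33.1 to 40.5 (median 36.9) in high-sugar samples and 59.5 to 149.5 (median 111) in control samples. Its high-sugar values lay close together below the whole control range (−0.95 ± 0.15, adjusted p = 2.39e-05). Fbp1, fructose-1,6-bisphosphatase, was at 6656 to 7840.2 (median 7265) in high-sugar samples and 8881 to 10806 (median 9792) in control samples, without overlap (−0.44 ± 0.079, adjusted p = 0.000137). Pcx, pyruvate carboxylase, fell on its brightest probe (−0.65 ± 0.11, adjusted p = 4.61e-05) and gave −0.024 on another. The other probe was dim, with means of 14.9 in high-sugar and 15.5 in control samples. Pck1, the gene of the cytosolic carboxykinase, was at 117 to 168 (median 157) in high-sugar samples and 72.9 to 119 (median 99.9) in control samples with slight overlap and rose (0.49 ± 0.10, adjusted p = 0.000770; 0.49 on another probe), as did the malate dehydrogenase gene Mdh1 (0.33 ± 0.10).

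Of 11 tested glycogen genes, 2 fell and 1 rose (18.2% and 9.09%, near the 14% and 14.8% of all genes). Gaa, the lysosomal glucosidase that breaks down glycogen, was at 455 to 628 (median 482) in high-sugar samples and 641 to 964 (median 750.0) in control samples, without overlap (−0.55 ± 0.093, adjusted p = 7.51e-05), and Ppp1r3g fell as above. Gyg, the glycogenin primer, rose only between values near the noise limit (0.22 ± 0.078, adjusted p = 0.0301), a call that ended when any 1 of 6 samples was left out. Of 10 tested genes of insulin signalling and FOXO targets, Ppp1r3g was the only one that changed. Irs2, an insulin receptor substrate, was at 179 to 285 (median 224) in high-sugar samples and 204 to 399.8 (median 339) in control samples and did not pass (−0.39 ± 0.15).

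Cytochrome P450 genes of drug and steroid metabolism mostly moved up where they moved: 13 of 26 tested members, with the receptor genes included, rose (50%) and 1 fell, with a median of 0.21. Cyp2c37 was at 4986 to 6988 (median 6526) in high-sugar samples and 2103 to 3508 (median 2790.5) in control samples, without overlap (1.19 ± 0.13, adjusted p = 4.16e-07; 1.25 on another probe). Cyp2c29, on a dim probe, was at 41.7 to 60.4 (median 49.9) in high-sugar samples and 13 to 19.9 (median 14.9) in control samples, also apart (0.78 ± 0.069, adjusted p = 1.08e-08). Cyp2b10, the best-known CAR target in mouse liver, was at 34.03 to 141 (median 91.02) in high-sugar samples and 3.76 to 57.6 (median 14.7) in control samples, with overlap (1.19 ± 0.24, adjusted p = 0.000560), and its other probe gave 0.12. That other probe lay near the noise limit (means 7.45 in high-sugar and 4.40 in control samples), so its value says little. The receptors themselves moved less. Nr1i3, which encodes CAR, rose (0.35 ± 0.13, adjusted p = 0.0389), a call lost when any 1 of 8 samples was left out, though 2 of its 4 other probes rose as well (0.41 and 0.49). Nr1i2, which encodes PXR, was at 168 to 219 (median 209) in high-sugar samples and 139.8 to 181 (median 151) in control samples and rose with overlap (0.34 ± 0.11, adjusted p = 0.0218). Cyp3a11, a PXR target, was at 2774 to 5174 (median 3776) in high-sugar samples and 4447 to 8343 (median 6232) in control samples and was the 1 P450 gene of the list that fell (−0.71 ± 0.22, adjusted p = 0.0136).

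The conjugating enzymes were split. Of 32 tested glucuronosyl, sulfo and glutathione transferase genes 14 rose (43.8%) and 5 fell (15.6%). Gstt3, a theta-class glutathione transferase, was at 322 to 508 (median 424) in high-sugar samples and 92.3 to 225 (median 157) in control samples, without overlap (1.24 ± 0.20, adjusted p = 3.64e-05). Ugt3a2 was at 9925 to 13067 (median 11520.2) in high-sugar samples and 6296 to 8999.7 (median 8019.7) in control samples, also without overlap (0.58 ± 0.083, adjusted p = 9.67e-06). The 5 that fell were Ugt1a2 and Ugt1a5, named above, and Gstm2 (−0.70 ± 0.18), Gstm6 (−0.59 ± 0.14) and Gstt2 (−0.41 ± 0.12; 0.13 on another probe), again from families of close relatives.

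Genes with a sex bias in mouse liver follow the pattern of growth hormone pulses. Of 10 tested male-biased genes 3 fell (Cyp4a12b, Cyp4a12a and the elongase Elovl3) and 1 rose (Mup20), with a median of −0.28. That is 30% and 10%, beside 14% and 14.8% of all genes. Only 7 of 16 female-biased genes were tested, so that list says little of the group. Among these 7 Cyp2b9 alone rose (14.3%, near the share of all genes). Elovl3 was at 136 to 228 (median 163) in high-sugar samples and 219 to 414 (median 289) in control samples, with slight overlap (−0.73 ± 0.19, adjusted p = 0.00546), and Cyp4a12a fell by 0.98. The growth hormone receptor gene Ghr was at 1950.3 to 2500.5 (median 2339.9) in high-sugar samples and 1205 to 1807 (median 1380.3) in control samples, without overlap (0.67 ± 0.12, adjusted p = 0.000193), and 2 other probes gave 0.66 and 0.64. Igf1, the growth factor that growth hormone induces in liver, was at 8467 to 11088 (median 9074) in high-sugar samples and 9875 to 11360.5 (median 10950) in control samples, with overlap (−0.20 ± 0.062, adjusted p = 0.0159), and its other probe gave 0.049.

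In the list of NRF2 targets and antioxidant defence 7 of 19 tested genes rose and 2 fell (36.8% and 10.5%). Gclm, the regulatory subunit of the first enzyme of glutathione synthesis, was at 668 to 805 (median 694) in high-sugar samples and 342 to 489 (median 386) in control samples, without overlap (0.80 ± 0.095, adjusted p = 8.40e-07). Cat, the catalase of peroxisomes, was at 550.3 to 693 (median 639) in high-sugar samples and 278 to 461 (median 362) in control samples, without overlap (0.74 ± 0.11, adjusted p = 2.63e-05; 0.81 on another probe). Ftl1, the ferritin light chain, was at 1201 to 1651 (median 1502) in high-sugar samples and 666 to 971 (median 749.8) in control samples, without overlap (0.86 ± 0.13, adjusted p = 1.55e-05). The heme oxygenase gene Hmox1 (0.58 ± 0.17) and the mitochondrial dismutase gene Sod2 (0.39 ± 0.068) rose by less. The 2 that fell were Gpx4, which reduces lipid peroxides (−0.41 ± 0.096), and Gss, of glutathione synthesis (−0.29 ± 0.086; its 3 other probes did not pass). The antioxidant response element, to which NRF2 is known to bind, was searched for as TGAC, any 3 bases and GC, on both strands in the 250 bases before the RefSeq start (GRCm38.p6). It lay in the promoters of 11.5% of all genes and of 5 of 18 listed genes (27.8%). Of 4 tested genes with a match 3 rose, and of 13 without one 3 rose and 2 fell. Gclm has a match, while Cat, Ftl1, Hmox1 and Sod2 are not among the genes with one. Only 17 of the 19 tested genes had a promoter to search, and not all of the genes just named were among them.

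Chaperones and folding factors of the endoplasmic reticulum (ER) rose in part: 8 of 24 tested rose, none fell and 16 did not pass (median 0.22). The share that rose was 33.3%, beside 14.8% of all genes. Dnajb9, a cochaperone of the ER, was at 64.01 to 110.4 (median 86.03) in high-sugar samples and 16.5 to 27.5 (median 22.9) in control samples, without overlap (1.10 ± 0.13, adjusted p = 7.82e-07). Calr, which encodes the calcium-binding chaperone calreticulin, was at 559 to 806 (median 730.2) in high-sugar samples and 281 to 432 (median 337) in control samples, and Hsp90b1, the ER member of the HSP90 family, at 581 to 732 (median 645) in high-sugar samples and 217 to 487 (median 306) in control samples. Neither overlapped (0.97 ± 0.19, adjusted p = 0.000284 for Calr; 0.91 ± 0.18, adjusted p = 0.000416 for Hsp90b1). Pdia6, a disulfide isomerase, rose on a dim probe, also apart (0.48 ± 0.094, adjusted p = 0.000348). Herpud1 (0.42 ± 0.14), the ubiquitin ligase Syvn1 (0.44 ± 0.14) and Ssr1 (0.26 ± 0.086), which act in degradation and import at the ER, rose too. The probe of Hspa5, the main ER chaperone BiP, lay near the noise limit (3.99 to 15.8 (median 9.68) in high-sugar samples and −1.46 to 8.81 (median 1.94) in control samples), so its rise (0.29 ± 0.090, adjusted p = 0.0151) is poorly measured.

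The ER stress element, to which ATF6 and NF-Y are known to bind, was searched for as CCAAT, then any 9 bases, then CCACG, on both strands in the 250 bases before the RefSeq start of each gene (GRCm38.p6). It was found in 0.130% of 27025 genes and in 9 of the 23 listed ER genes with a promoter in the table. Of the 8 tested genes with the match 5 rose, and of 13 tested genes without it 3 rose. The 3 that rose without it were Dnajb9, Herpud1 and Ssr1. The windows below, 60 bases on the gene's strand written 5′ to 3′, show 3 members that rose and hold it, with the match or its reverse complement in capitals; another match of Hsp90b1 lies outside its window.
Calr, chr8:84847055-84847114, minus strand: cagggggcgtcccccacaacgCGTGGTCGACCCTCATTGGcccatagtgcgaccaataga
Hsp90b1, chr10:86705513-86705572, minus strand: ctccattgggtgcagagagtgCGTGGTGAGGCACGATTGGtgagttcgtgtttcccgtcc
Pdia6, chr12:17266470-17266529, plus strand: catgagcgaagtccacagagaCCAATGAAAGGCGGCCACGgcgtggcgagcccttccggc

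In the integrated stress response, phosphorylated eIF2α raises ATF4. None of its 16 tested genes rose and 4 fell (25%, beside 14% of all genes), with a median of −0.043. Ppp1r15a, which guides the phosphatase that reverses the response, was at 109 to 161 (median 132) in high-sugar samples and 165 to 255 (median 211) in control samples, without overlap (−0.54 ± 0.098, adjusted p = 0.000185). The translation repressor genes Eif4ebp1 (−0.34 ± 0.10, adjusted p = 0.0150) and Eif4ebp3 (−1.01 ± 0.38) fell, and Asns, asparagine synthetase, fell between values near the noise limit (−0.37 ± 0.11). The call of Eif4ebp3 was lost when any 1 of 10 samples was left out. Atf4 was at 222 to 295 (median 270.2) in high-sugar samples and 157 to 269 (median 225) in control samples and did not pass on this probe (0.26 ± 0.12), though another, dimmer probe rose (0.83), and the Ddit3 probe, for CHOP, did not pass either (−0.16 ± 0.19; 0.37 and past the threshold on another). Of 13 tested heat shock genes 4 rose (30.8%, beside 14.8% of all genes) and none fell. These were the mitochondrial chaperones Hspd1 (0.47 ± 0.13, adjusted p = 0.00635; 1.03 on another probe), Hspe1 (0.34 ± 0.11, lost when any 1 of 4 samples was left out) and Hspa9 (0.27 ± 0.085; other probe 0.18; a call that ended when only the 12 arrays were fitted), and the cochaperone Bag3 (0.35 ± 0.13, lost when any 1 of 8 samples was left out). Only 2 of the heat shock genes rose in the fit of the 12 arrays, or without control replicate 2, high-sugar replicate 1 or high-sugar replicate 6.

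Interferon-response genes had the highest share of rises among lists with at least 10 tested members: 13 of 23 (56.5%, beside 14.8% of all genes), with 1 that fell and a median of 0.36. They included guanylate-binding proteins and immunity-related GTPases, which interferons induce. Gbp2, a guanylate-binding protein, was at 309 to 672 (median 533) in high-sugar samples and 157 to 241 (median 227) in control samples, without overlap (1.09 ± 0.19, adjusted p = 8.93e-05). Ifit3, an antiviral gene of the tetratricopeptide family, was at 608 to 840.5 (median 813) in high-sugar samples and 282 to 616 (median 335) in control samples, with 1 control value inside the high-sugar range (1.01 ± 0.16, adjusted p = 4.19e-05; 0.63 on another probe). Irgm1, an immunity-related GTPase, was at 1607 to 2273 (median 2003) in high-sugar samples and 1083 to 1417 (median 1266) in control samples, without overlap (0.63 ± 0.11, adjusted p = 0.000107; 0.61 on another probe). Cxcl10, a chemokine that draws T cells, was at 129.8 to 348 (median 207) in high-sugar samples and 70.3 to 121 (median 93.9) in control samples, without overlap (0.94 ± 0.22, adjusted p = 0.00178). Its relative Cxcl9 (0.91 ± 0.30), the transcription factor gene Irf1 (0.57 ± 0.13, with 0.24 to 0.32 on 3 other probes that did not pass), Rsad2 (0.56 ± 0.18) and Gbp3 (0.56 ± 0.14) rose too. Isg15 (0.16 ± 0.19), Ifit2 (0.14 ± 0.14) and Irf7 (0.028 ± 0.11) did not pass. Bst2, tetherin, was the 1 that fell (−0.77 ± 0.18).

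The interferon-stimulated response element was searched for as GAAA, any 2 bases and GAAA in the same way. It lay in the promoters of 3.46% of all genes and of 14 of 23 listed interferon genes (60.9%). Of 11 tested genes with a match 8 rose and 1 fell, and of 8 tested genes without one 5 rose. The windows of the 4 genes described above are printed as before, with the match or its reverse complement in capitals; Ifit3 holds 2, and Irgm1 holds 2 that overlap.
Gbp2, chr3:142620579-142620638, plus strand: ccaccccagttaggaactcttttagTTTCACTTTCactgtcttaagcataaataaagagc
Ifit3, chr19:34583365-34583424, plus strand: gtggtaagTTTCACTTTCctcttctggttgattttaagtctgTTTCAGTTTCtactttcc
Irgm1, chr11:48871421-48871480, minus strand: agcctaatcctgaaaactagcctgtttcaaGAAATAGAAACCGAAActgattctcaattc
Cxcl10, chr5:92349068-92349127, minus strand: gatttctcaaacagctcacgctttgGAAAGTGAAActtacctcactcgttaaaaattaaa

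**Figure D3:**
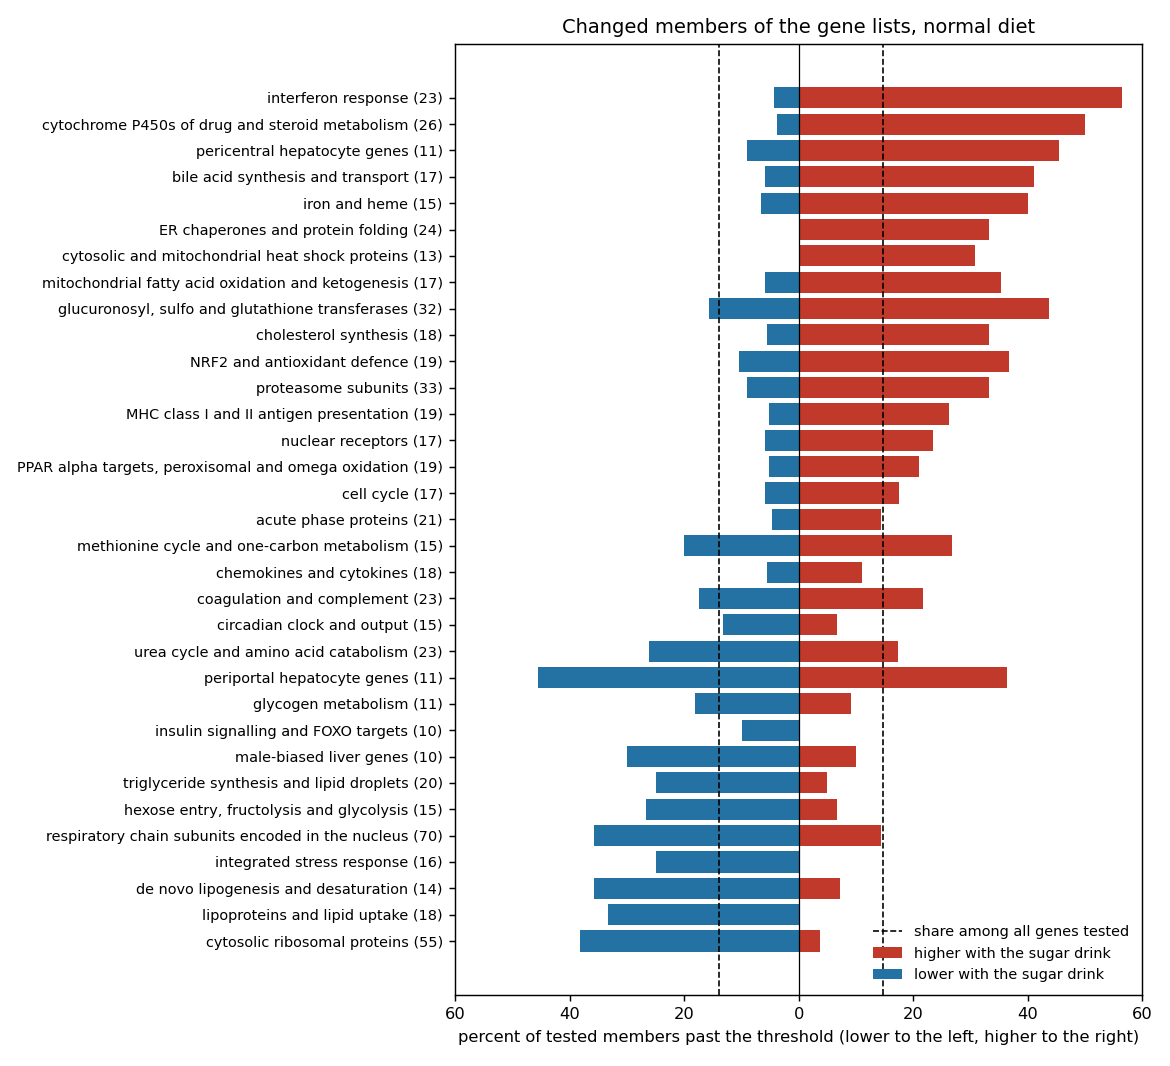
Percent of the tested members of each gene list that were higher (red, right) or lower (blue, left) in high-sugar samples against control samples, for lists with at least 10 tested members (number in brackets); dashed lines are the shares among all genes tested, 14.8% higher and 14% lower. Interferon-response genes reach 56.5% higher, and cytosolic ribosomal proteins 38.2% lower.

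Of 19 tested genes of antigen presentation 5 rose, 1 fell and 13 did not pass, and no class II gene passed. That is 26.3% and 5.26%, beside 14.8% and 14% of all genes. H2-K1, a class I heavy chain, was at 246 to 341 (median 278) in high-sugar samples and 157 to 203 (median 179.9) in control samples, without overlap (0.59 ± 0.11, adjusted p = 0.000209), and 2 other probes gave 0.77 and −0.20. H2-D1, a near-identical class I gene, fell on its brightest probe (−0.28 ± 0.091), while others gave 0.072, 0.0061 and 0.51, the last a rise past the threshold. H2-Q10, a secreted class I relative, rose on a dim probe (0.59 ± 0.10, adjusted p = 0.000103). Psmb9, a proteasome subunit that interferon induces, was at 149 to 314 (median 248) in high-sugar samples and 90.96 to 205 (median 129) in control samples, with overlap (0.70 ± 0.17, adjusted p = 0.00225). Psmb10 (0.42 ± 0.11) and the peptide transporter gene Tap2 (0.36 ± 0.091) rose as well.

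Proteasome genes rose in 11 of 33 tested cases, fell in 3 and did not pass in 19 (median 0.12). That is 33.3% and 9.09%, beside 14.8% and 14% of all genes. All 5 tested ATPase subunits of the regulatory particle rose, against 4 of 16 core subunits and 2 of 12 non-ATPase subunits; the difference between these parts was not tested. Psmc2, an ATPase subunit, was at 3352 to 4253 (median 3733) in high-sugar samples and 2512 to 2909 (median 2803) in control samples, without overlap (0.43 ± 0.068, adjusted p = 3.72e-05). Psma4, a core subunit, was at 2268 to 2981 (median 2771) in high-sugar samples and 1806 to 2194 (median 1959) in control samples, without overlap (0.45 ± 0.071, adjusted p = 3.63e-05). Psmd9, an assembly chaperone of the particle, fell on its brightest probe (−0.77 ± 0.11, adjusted p = 6.78e-06). Another probe gave 0.17 but had means below the noise limit (5.16 in high-sugar and 0.954 in control samples).

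Of 21 tested acute phase genes 3 rose and 1 fell (14.3% and 4.76%, beside 14.8% and 14% of all genes). Saa4, the constitutive serum amyloid A gene, was at 1092 to 1520.4 (median 1232) in high-sugar samples and 395 to 756 (median 512) in control samples, without overlap (1.19 ± 0.18, adjusted p = 1.73e-05). Cfb, complement factor B, was at 60.7 to 82.4 (median 73.9) in high-sugar samples and 27.8 to 46.9 (median 32.5) in control samples, without overlap (0.64 ± 0.10, adjusted p = 4.70e-05). Orm1, orosomucoid, was at 9046 to 15628 (median 12216) in high-sugar samples and 16384 to 20592 (median 19031) in control samples, apart in the other direction (−0.61 ± 0.12, adjusted p = 0.000482). Hamp, the gene of the iron hormone hepcidin, was at 1019.7 to 2597 (median 1638) in high-sugar samples and 389 to 1153 (median 895) in control samples and rose with overlap (1.09 ± 0.34, adjusted p = 0.0183), a call that ended without control replicate 3 (0.90).

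Of 23 tested coagulation and complement genes 5 rose and 4 fell, shares of 21.7% and 17.4% that lie near those of all genes (14.8% and 14%). F13b, a subunit of the factor that cross-links fibrin, was at 3107 to 3454 (median 3318) in high-sugar samples and 2603 to 2859 (median 2750.1) in control samples, without overlap (0.26 ± 0.058, adjusted p = 0.00143; 1.21 on another probe). F12, of the contact pathway, fell with slight overlap (−0.32 ± 0.070, adjusted p = 0.00107; −0.22 and −0.25 on 2 others). F5, a cofactor of thrombin formation, rose on its brightest probe without overlap (0.55 ± 0.081, adjusted p = 1.54e-05), while the other gave −0.24. In iron and heme metabolism 6 of 15 tested genes rose and 1 fell (40% and 6.67%). Uros, an enzyme of heme synthesis, was at 72.5 to 161 (median 106) in high-sugar samples and 35.1 to 92.8 (median 41.7) in control samples, with overlap (0.80 ± 0.14, adjusted p = 8.15e-05; 0.70 and 0.29 on 2 other probes). Cpox and Fech, of later steps, rose by less (0.32 ± 0.089, with −0.038 on another probe, and 0.30 ± 0.089), as did the iron exporter gene Slc40a1 (0.36 ± 0.12). The other Cpox probe had means below the noise limit (4.64 in high-sugar and 5.47 in control samples). The iron sensor gene Tfr2 fell (−0.28 ± 0.076, adjusted p = 0.00756; −0.34 on another probe).

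In the urea cycle and amino acid catabolism 6 of 23 tested genes fell and 4 rose. That is 26.1% and 17.4%, beside 14% and 14.8% of all genes. Without control replicate 6, 3 fell. The members that fell included 4 of the 5 enzymes of the cycle and its ornithine carrier. Ass1, argininosuccinate synthase, was at 9521 to 13378 (median 11163) in high-sugar samples and 12353 to 17095 (median 15502) in control samples, with overlap (−0.42 ± 0.11, adjusted p = 0.00706). Cps1, the mitochondrial entry enzyme, was at 7291 to 8656 (median 7754) in high-sugar samples and 6639 to 13555 (median 10980.5) in control samples, with the high-sugar range inside that of the controls (−0.38 ± 0.12, adjusted p = 0.0226; −0.39 on another probe), and its call ended without control replicate 5 (−0.34) or 6 (−0.30). Arg1, arginase, fell (−0.43 ± 0.13, adjusted p = 0.0111; other probe −0.15), as did Asl (−0.51 ± 0.19, a call that ended when any 1 of 8 samples was left out) and the carrier gene Slc25a15 (−0.45 ± 0.14). Tdo2, which opens tryptophan breakdown, rose on a dim probe without overlap (0.41 ± 0.067, adjusted p = 5.86e-05). Prodh, of proline breakdown, rose on 1 probe (0.57 ± 0.16, adjusted p = 0.00787) and gave 0.24 on another.

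The methionine cycle and one-carbon metabolism had 4 genes higher and 3 lower of 15 tested. That is 26.7% and 20%, beside 14.8% and 14% of all genes. Cbs, which draws homocysteine towards cysteine, was at 1034 to 1323 (median 1116) in high-sugar samples and 1325 to 1909.7 (median 1615) in control samples; the ranges met without overlap (−0.49 ± 0.095, adjusted p = 0.000319; −0.61 on another probe). Shmt2 and Shmt1, serine hydroxymethyltransferases of mitochondria and cytosol, rose on their brightest probes without overlap (0.62 ± 0.092 and 0.57 ± 0.12), while the other probe of each did not pass (0.21 and −0.19). Gnmt, which consumes surplus methyl groups, fell by 0.32.

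Genes that mark the zones of the liver lobule did not separate cleanly. Of 11 tested pericentral genes 5 rose and 1 fell (45.5% and 9.09%, beside 14.8% and 14% of all genes). Of 11 tested periportal genes 4 rose and 5 fell (36.4% and 45.5%). These counts depend on single samples: 2 pericentral genes rose without high-sugar replicate 5 and 3 without control replicate 2 or high-sugar replicate 4, and 2 periportal genes fell without control replicate 5 or 6 and 3 without control replicate 4 or high-sugar replicate 1, 3 or 6. Cyp2a5, a pericentral P450, was at 11209.8 to 13884 (median 12184) in high-sugar samples and 4481 to 10478 (median 8409) in control samples, without overlap (0.67 ± 0.16, adjusted p = 0.00225), and 4 other probes gave 0.69 to 0.84. Cyp1a2 was at 4356 to 5032 (median 4965) in high-sugar samples and 2901 to 4705 (median 3635) in control samples, with overlap (0.42 ± 0.12, adjusted p = 0.00894). Cyp2e1 rose by little (0.19 ± 0.061, adjusted p = 0.0202), a call lost without control replicate 2 or high-sugar replicate 5 (0.15 and 0.16). Among periportal genes the urea cycle enzymes fell, while Ctsc, cathepsin C, was at 1539.8 to 1777 (median 1713) in high-sugar samples and 833 to 1642 (median 1110.3) in control samples and rose with overlap (0.53 ± 0.13, adjusted p = 0.00286; 0.74 and 0.38 on 2 other probes).

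Many genes of the ribosome and the respiratory chain fell by small steps. Of 55 tested cytosolic ribosomal protein genes 21 fell (38.2%, beside 14% of all genes) and 2 rose, with a median of −0.18. In the small subunit 11 of 23 fell and none rose, and in the large subunit 10 of 32 fell and 2 rose. Rps10 was at 2303 to 3068 (median 2805) in high-sugar samples and 3275 to 4714 (median 4142) in control samples, without overlap (−0.59 ± 0.091, adjusted p = 2.47e-05). Rps15 was at 1847 to 2737 (median 2312) in high-sugar samples and 3040.0 to 4803 (median 3736) in control samples, also without overlap (−0.73 ± 0.12, adjusted p = 4.95e-05). The 2 that rose were Rpl4, at 299 to 341 (median 311) in high-sugar samples and 215 to 249.6 (median 242) in control samples, without overlap (0.37 ± 0.069, adjusted p = 0.000199), and Rpl3 (0.22 ± 0.070).

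Of 70 tested nuclear genes of respiratory chain subunits 25 fell, 10 rose and 35 did not pass (median −0.16). That is 35.7% and 14.3%, beside 14% and 14.8% of all genes. Without high-sugar replicate 1 or 5, 6 rose. Complex I had 12 lower and 3 higher of 33, complex III 4 lower and 1 higher of 8, the ATP synthase 6 lower and 2 higher of 16, and complex IV 3 lower and 3 higher of 11. Ndufa11, a subunit of complex I, was at 1821 to 2937 (median 2525) in high-sugar samples and 3152 to 3918 (median 3523) in control samples, without overlap (−0.55 ± 0.10, adjusted p = 0.000211). Ndufa6, of the same complex, was at 5684 to 8127 (median 7609) in high-sugar samples and 8881 to 11435 (median 9548) in control samples, also apart (−0.45 ± 0.088, adjusted p = 0.000361). Cox7a2, of complex IV, rose on a probe whose control values lay mostly below the noise limit (0.44 ± 0.093, adjusted p = 0.000676).

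Markers of other cells of the liver changed singly. Of 10 tested Kupffer cell markers 2 rose and 1 fell (20% and 10%, beside 14.8% and 14% of all genes). Their summed intensity was 3518 to 5752 in high-sugar samples and 4153 to 4538 in control samples. Cd5l and Cd68 were not above noise or had no probe. C1qa, a complement component made by these cells, was at 207 to 300.5 (median 246) in high-sugar samples and 310.2 to 363 (median 334) in control samples, without overlap (−0.37 ± 0.11, adjusted p = 0.0110), while the macrophage genes Mpeg1 (0.54 ± 0.11) and Adgre1 (0.26 ± 0.073) rose on probes whose control values lay mostly below the noise limit. The macrophage gene Lgals3, galectin-3, was at 125 to 253 (median 145) in high-sugar samples and 55.4 to 84.8 (median 64.2) in control samples and rose without overlap (0.93 ± 0.18, adjusted p = 0.000285), and Cd9, a tetraspanin, was at 136 to 229.6 (median 176) in high-sugar samples and 266 to 480.3 (median 374) in control samples and fell without overlap (−0.96 ± 0.16, adjusted p = 6.61e-05). The other 3 tested genes of that list did not pass, and Spp1, Itgax, Ccr2 and Ly6c2 were not above noise or had no probe. Its summed intensity was 953 to 1874 in high-sugar samples and 981 to 1521 in control samples.

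Sinusoidal endothelial markers went both ways, 3 higher and 2 lower of 10 tested (30% and 20%, beside 14.8% and 14% of all genes). Their summed intensity was 6003 to 7504 in high-sugar samples and 4899 to 6414 in control samples. Clec4g, a lectin of these cells, was at 4532 to 5985 (median 4655) in high-sugar samples and 3424 to 4520.4 (median 3831) in control samples and rose without overlap (0.32 ± 0.081, adjusted p = 0.00390). Its other probe gave −0.16 but lay near the noise limit (means 5.05 in high-sugar and 9.51 in control samples). Oit3 rose (0.26 ± 0.084), Lyve1 rose only near the noise limit (0.28 ± 0.082), and Eng (−0.32 ± 0.082, adjusted p = 0.00398) and Stab2 (−0.27 ± 0.086) fell. Among 9 tested stellate cell and fibrosis genes the proteoglycan gene Dcn alone passed (0.30 ± 0.11, adjusted p = 0.0376), a call lost when any 1 of 7 samples was left out (2 of 3 other probes rose, by 0.91 and 0.37), and Col1a1, the collagen gene, gave 0.030 ± 0.19. Of 5 tested T and NK cell genes Cd3d fell on a dim probe (−0.28 ± 0.11, adjusted p = 0.0476, lost when any 1 of 8 samples was left out). No tested neutrophil, erythroid, B cell, cholangiocyte or adipocyte marker passed. Amy2a5, a pancreatic amylase gene with close relatives expressed in liver, was at 4502 to 5372 (median 4779) in high-sugar samples and 2595 to 3235 (median 2921) in control samples and rose without overlap (0.74 ± 0.088, adjusted p = 8.25e-07), while the pancreatic genes Cpa1, Pnlip and Cel were not above noise or had no probe.

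Of 18 tested chemokine and cytokine genes apart from Cxcl9 and Cxcl10, 2 rose and 1 fell (11.1% and 5.56%, below the shares of all genes). Ccl4 was at 14.3 to 135 (median 37.2) in high-sugar samples and 4.59 to 19.7 (median 9.52) in control samples, with overlap (0.86 ± 0.26, adjusted p = 0.0145; 0.25 on another probe), and Cxcl2 rose between values near or below the noise limit (0.32 ± 0.10). The 1 that fell, Il18, did so on its brightest probe (−0.33 ± 0.13, adjusted p = 0.0481), while its other probe rose (0.35, past the threshold). Of 9 tested immediate early genes Egr1 and Fos rose (22.2%, beside 14.8% of all genes). Fos did so on a probe near or below the noise limit (0.35 ± 0.13), and Jun, Junb and Dusp1 did not pass.

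Clock genes stayed at or below the shares of all genes, with 1 higher and 2 lower of 15 tested (6.67% and 13.3%). Bhlhe40, a repressor linked to the clock, was at 105 to 145 (median 126) in high-sugar samples and 12.4 to 86.6 (median 60.2) in control samples, without overlap (0.99 ± 0.20, adjusted p = 0.000463). Cry2, a core repressor (−0.58 ± 0.12, adjusted p = 0.000514), and the output factor gene Tef (−0.68 ± 0.17, adjusted p = 0.00321; other probe 0.013) fell with overlap. Of 17 tested cell cycle genes 3 rose and 1 fell (17.6% and 5.88%, near or below the 14.8% and 14% of all genes). The replication helicase gene Mcm4 (0.27 ± 0.084, adjusted p = 0.0181) and the cyclin gene Ccnd1 (0.46 ± 0.15) were among those that rose. Rrm2 fell on a dim probe (−0.36 ± 0.11). Among 17 tested nuclear receptor genes 4 rose and 1 fell (23.5% and 5.88%). Pparg, the receptor that favours fat storage, was at 235 to 370.1 (median 334) in high-sugar samples and 120.3 to 237 (median 198) in control samples, with a slight overlap (0.73 ± 0.21, adjusted p = 0.00972).

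Whether the sugar drink acted alike on both diets was tested by the interaction: the difference between high-fat high-sugar and high-fat samples less the difference between high-sugar and control samples. It passed for 275 genes (2.47%). That count depends on single samples: it was 170 without control replicate 1, 175 without control replicate 3, 177 without high-sugar replicate 2 and 449 without control replicate 4. Of the 275 genes 170 changed on the normal diet, 98 higher and 72 lower, and for 74 of the 98 and 64 of the 72 the effect was larger in size on the normal diet. The interaction contains the normal-diet effect itself, so that split is partly built in. In 117 the sugar drink had no effect past the threshold on the high-fat diet, in 25 it changed both in the same direction, and in 28 in opposite directions. On the high-fat diet the sugar drink changed 3402 genes (30.6%).

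Fgf21 and Hspd1 were among the genes with opposite effects. Fgf21 rose on the normal diet and changed by −0.77 ± 0.21 on the high-fat diet (interaction −1.54 ± 0.30, adjusted p = 0.00583), and Hspd1 by −0.33 ± 0.13 there (−0.80 ± 0.18, adjusted p = 0.0153). The urinary protein genes Mup20 and Mup5 rose on the normal diet (1.39 ± 0.21 and 1.15 ± 0.21) and changed by −0.44 ± 0.21 and −0.051 ± 0.21 on the high-fat diet, which did not pass. Pck1 rose on the normal diet and gave −0.083 ± 0.10 on the high-fat diet (interaction −0.58 ± 0.15). Tdo2, Psmc2, Cpox, Cyp2c29 and H2-Q10 likewise rose on the normal diet, with −0.041, 0.012, −0.20, 0.20 and −0.13 on the high-fat diet. Decr2 rose by 0.50 on the normal diet (0.32 without control replicate 1) and gave −0.37 ± 0.15 on the high-fat diet. Eif4ebp3 and Mgll fell on the normal diet (−1.01 ± 0.38 and −0.42 ± 0.13) and fell further on the high-fat diet (−2.99 and −1.13). Sik1, a kinase that restrains gluconeogenic transcription, and Plk3 fell on the normal diet (−1.08 ± 0.16 and −1.22 ± 0.24) and gave 0.037 ± 0.16 and 0.29 ± 0.24 on the high-fat diet.

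A few P450 genes went the other way. Cyp2a5 rose by 0.67 on the normal diet and by 1.85 ± 0.16 on the high-fat diet (interaction 1.18 ± 0.22, adjusted p = 0.00485), and Cyp1a2 by 0.42 and 1.18 ± 0.12 (interaction 0.76 ± 0.17). Cyp2b13, a female-biased gene, was above noise in 4 of 6 high-sugar and no control samples, did not pass on the normal diet (0.61 ± 0.35), and rose by 2.40 ± 0.35 on the high-fat diet. Several of the clearest interactions rested on 1 probe of a gene. Ffar3, a receptor for short-chain fatty acids, rose on the normal diet by 1.10 ± 0.11 and gave −0.13 on the high-fat diet, but its other probe gave −0.090 on the normal diet. Acin1 gave 0.082 on the high-fat diet. Kcnj4 rose on the normal diet (1.06 ± 0.092; other probe −0.0085) and gave 0.18 on the high-fat diet, while Syngr4 rose on the normal diet (1.06 ± 0.077; other probe −0.058) and by less on the high-fat diet (0.50). Pabpc1l, which rose on the high-fat diet too (0.45; interaction −0.96 ± 0.23), and the mitochondrial gene ND4L (1.26 ± 0.13 on the normal diet, −0.17 on the high-fat diet) had a single probe. Alb, for albumin, had a single probe too, with intensities of only 114 to 224 (median 138) in high-sugar samples and 47.5 to 73.5 (median 61.3) in control samples, low for so abundant a transcript, and its rise (0.96 ± 0.14, adjusted p = 1.15e-05; −0.076 on the high-fat diet) is given as that probe's value.

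**Figure D4:**
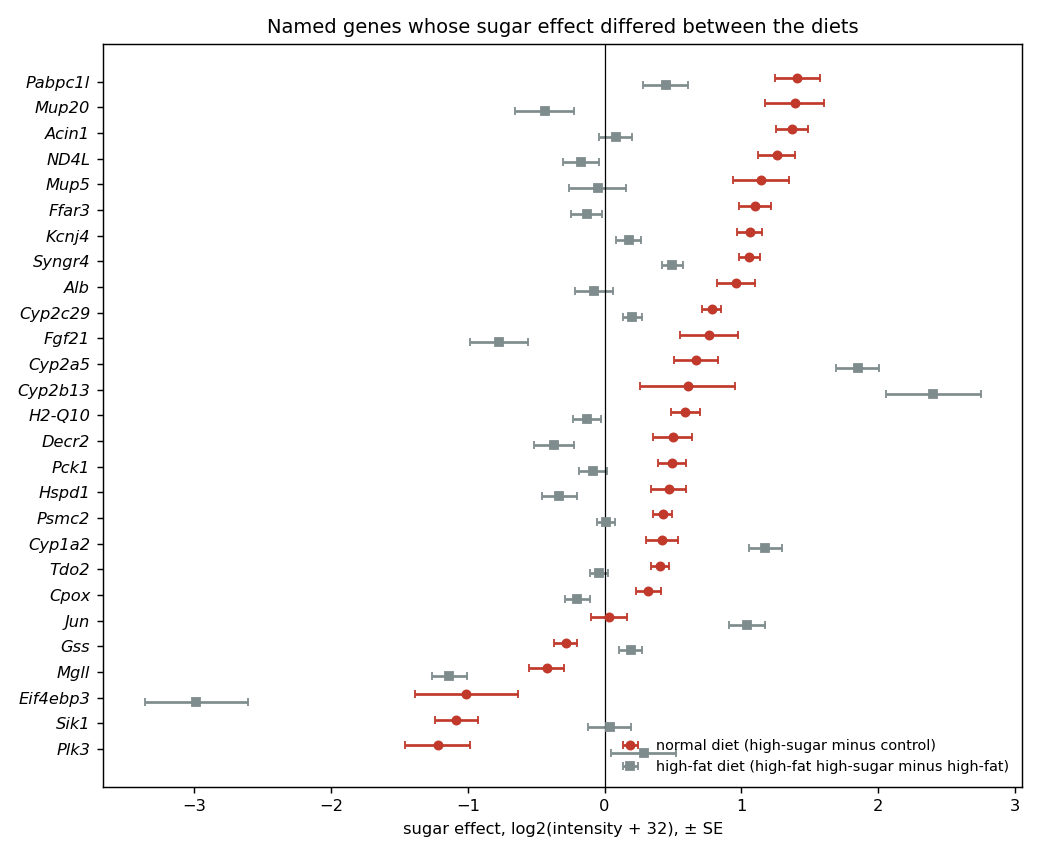
Effect of the sugar drink on log2(intensity + 32), ± SE, for the named genes whose interaction passed, on the normal diet (red circles) and on the high-fat diet (grey squares). Fgf21 lies right of 0 on the normal diet (0.77) and left of it on the high-fat diet (−0.77), while Cyp2a5 and Cyp1a2 lie further right on the high-fat diet.

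Further probes of a gene could differ from its brightest. Some further probes named above were dim or near the noise limit, also for Pgls, Lpin2, Ctsa, Fads1, Crat, Slc2a8, Tef and H2-D1. Where such a probe did not pass, its value says little about the gene. Others that did not pass were brighter. The Ctsa probe that gave 0.11 had means of 366 in high-sugar and 343 in control samples. For the H2-D1 probe at 0.072 the means were 2027 and 1930, and for the Crat probe at −0.045 they were 72.6 and 75.5. The genes that changed had 1865 further probes above noise; 724 of these passed, 603 in the same direction and 121 in the opposite one (16.7%). The opposite share was 11.4% where the second probe had a mean intensity of at least 64 and 22.8% where it was dimmer. It was 7.69% for genes changed at least 1.5-fold and 18.5% for genes changed by less. These probes are on the same arrays, so they are no further samples.

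**Figure D5:**
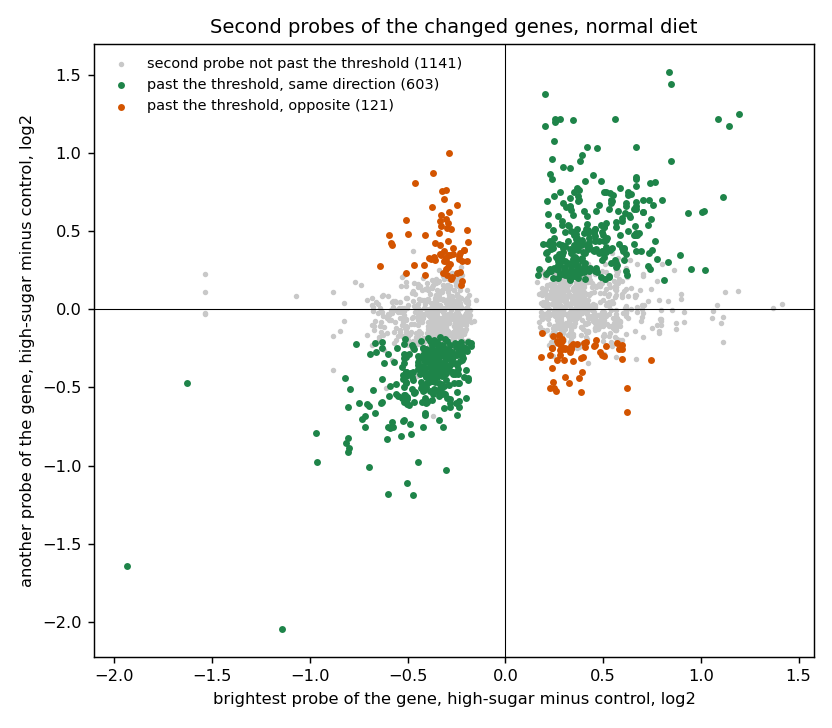
Difference between high-sugar and control samples (log2) on another probe of a gene (y axis) against that on its brightest probe (x axis), for the 1865 second probes of the genes that changed. Green probes passed in the same direction (603), orange ones in the opposite direction (121), and 112 of the orange probes belong to genes that changed by less than 1.5-fold.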

How the data were processed

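Liver RNA of 24 samples was measured on an Illumina bead array. Per the submitters' processing notes the authors used GenomeStudio 2011.1. The deposited unit is probe intensity on a linear scale; the values were background-subtracted (37.7% were negative) and quantile-normalised, as read from the values. A non-normalised table was not used here, because its 48 columns could not be matched to samples; background correction and detection p-values were therefore not recomputed.

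Noise was taken per array as the root mean square of the values below 0. A probe was kept when above 1.645 times that noise (an intensity of 6.50 to 6.52 in these 12 arrays) on at least 6 of 24 arrays, which left 20216 of 45281 probes. Each gene was read by its kept probe with the highest mean, giving 11115 genes, of which 4030 had several kept probes. Symbols came from the platform annotation, with 34885 probes that had 1 symbol (34807 updated through the gene identifier), 10378 with none and 18 with several. The array's build is not given in the sources used here; promoter sequences and coordinates are RefSeq's (GRCm38.p6).

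An offset of 32 was added and log2 taken, which shrinks the changes of dim genes. limma 3.58.1 in R 4.3.3 was fitted to 4 group means over all 24 arrays, with eBayes and its trend option (residual degrees of freedom 20, prior 6.95), two-sided, with Benjamini-Hochberg adjustment over all genes and a threshold of 0.05. A fold is that of intensity plus offset. "At least N-fold" sets the high-sugar mean against the noise limit where no control array was above it. Replicate numbers are shared between the groups but no label pairs the samples. The number of arrays limits the precision.

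Genes, lists and motifs were chosen with earlier results of these data known. Named genes are the 12 largest rises and 12 largest falls with a standard symbol, the 3 members of each list with the smallest adjusted p, members named by role, and others named after their values were seen, among them those that complete a count of 5 or fewer, ND4L, Ffar3, Kcnj4, Mup5, Sik1 and Syngr4. Alternatives varied the offset, a floor, the filter, the normalisation, the probe rule, the weights, the trend, the block and the samples.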

Additional observations from a re-analysis of the deposited data

Results flagged for a closer look

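The 218 named genes give 436 groups of 6 values, and in 23 cases the highest or lowest value lay farther from its group than Dixon's critical value for the gap to the nearest sample allows. Chance flags about 1 in 20 groups, which comes to 22 here. The highest high-sugar intensity stood apart at 5985 for Clec4g (replicate 2), 92.5 for Cyp2b13 (replicate 1), 13.5 for Fos (replicate 2), 563 for Gpd1 (replicate 6) and 62.2 for Kcnj4 (replicate 3). The highest high-sugar intensity stood apart also at 253 for Lgals3 (replicate 1), 3570.4 for Slc40a1 (replicate 5), 485 for Tap2 (replicate 2) and 219.9 for Tpm2 (replicate 1). The lowest high-sugar intensity stood apart at 1539.8 for Ctsc (replicate 1), 93.2 for Dgat1 (replicate 1), 168 for Nr1i2 (replicate 1), 117 for Pck1 (replicate 1) and 31.6 for Pdia6 (replicate 5). The lowest high-sugar intensity stood apart also at 1814 for Pnpla2 (replicate 1). The highest control intensity stood apart at 25.2 for Cpt1a (replicate 4), 394 for Fgf21 (replicate 2) and 2025 for Syvn1 (replicate 6). The lowest control intensity stood apart at 231 for Cyp7a1 (replicate 2), 186 for Junb (replicate 5), 11.4 for Pdia6 (replicate 4), 298 for Slc2a2 (replicate 1) and 86.3 for Slc2a8 (replicate 2).

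For 27 named genes the sugar effect differed between the diets by the interaction in limma; each value below is a difference of log2 effects, high-fat diet less normal diet. It was −1.97 for Eif4ebp3, −1.83 for Mup20, −1.54 for Fgf21, −1.43 for ND4L, −1.29 for Acin1 and −1.23 for Ffar3. It reached −1.20 for Mup5, −1.04 for Alb, −0.96 for Pabpc1l, −0.89 for Kcnj4, −0.87 for Decr2 and −0.80 for Hspd1. Smaller negative values were −0.72 for H2-Q10, −0.71 for Mgll, −0.58 for Cyp2c29, −0.58 for Pck1, −0.56 for Syngr4 and −0.52 for Cpox. The smallest were −0.45 for Tdo2 and −0.41 for Psmc2. It was positive, at 1.80 for Cyp2b13, 1.51 for Plk3, 1.18 for Cyp2a5, 1.12 for Sik1, 1.01 for Jun and 0.76 for Cyp1a2. Further positive values were 0.48 for Gss. A negative value means a more positive effect on the normal diet than on the high-fat diet.

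Among the 3306 kept probes without a single gene symbol, 829 passed the threshold (25.1%), 394 higher and 435 lower in high-sugar samples, with differences from −1.57 to 2.39. These probes entered no other comparison.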

How the results depend on the processing

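The number of changed genes stayed between 2734 and 3297 under the other offsets, floor, filters, normalisations, probe rule, weights, trend, block and the fit of the 12 arrays alone, and between 2846 and 3106 when 1 sample was left out, against 3209. Counts of changes of at least 1.5-fold depend on the offset by its construction: 516 genes rose and 248 fell with an offset of 16, 185 and 94 with 64, and 585 and 414 with a floor of 16 in place of an offset (leaving out 1 sample, 307 to 333 and 142 to 191). The interaction passed for 453 genes with array weights and for 170 to 449 when 1 sample was left out, against 275; it was 170 without control replicate 1, 175 without control replicate 3, 449 without control replicate 4 and 177 without high-sugar replicate 2. The cause was not tested. Of 199 named genes that changed, 155 kept their call under every setting other than leaving out a sample and 165 whichever sample was left out. With the mean of all kept probes in place of the brightest, Il18 (0.0092) and H2-D1 (0.078) changed sign, neither past the threshold. That rule also ended the calls of Abcc2 (−0.15), Apoa4 (−0.54), Ccnd1 (0.33), Clec4g (0.077), Cpox (0.14), Crat (−0.28), Eif4ebp3 (−1.01), F5 (0.16), Fads1 (−0.19), Fech (0.12), Gnmt (−0.30), Gss (−0.13), Gstt2 (−0.14), Hsd17b7 (0.18), Igf1 (−0.076), Lss (0.10), Mdh1 (0.12), Prodh (0.41), Shmt1 (0.19) and Slc2a8 (−0.13). The floor ended those of Adgre1, Apoa4, Asl, Asns, Bag3, Cd3d, Cox7a2, Cxcl2, Cxcl9, Dcn, Dhcr7, Eif4ebp3, Fos, Gyg, Hspa5, Idi1, Il18, Lyve1, Mpeg1, Nr1i3, Slc2a2, Srebf1 and Tm7sf2, most of them dim genes. A fit of the 12 arrays alone ended the calls of Apoa4, Bag3, Cd3d, Cyp2e1, Hsd17b7, Hspa9, Idi1, Il18, Slc2a2 and Tm7sf2. Array weights ended the calls of Apoa4, Bag3, Cxcl9, Fos, Hspa5 and Idi1. Replicate numbers are shared between the groups, and samples with the same number did not deviate together (r from −0.27 to 0.13); with the number as a block 3195 genes changed, and the only named call that ended was that of Dcn (adjusted p = 0.0534 in limma). The loss of 1 particular sample ended the calls of Cxcl2 (0.27 without control replicate 1), Rpl3 (0.18 without control replicate 2), Slc25a15 (−0.35 without control replicate 6) and Stab2 (−0.22 without control replicate 2). In the fits in which the loss of any of several samples ended a call, the difference was 0.30 to 0.36 for Bag3, 0.40 to 0.41 for Ccnd1, 0.76 to 0.81 for Cxcl9, 0.25 to 0.30 for Dcn, 0.24 to 0.29 for Dhcr7, 0.30 to 0.37 for Fos, 0.18 to 0.22 for Gyg, 0.32 to 0.38 for Herpud1, 0.30 to 0.37 for Hsd17b7, 0.29 to 0.31 for Hspe1, 0.17 to 0.20 for Idi1, 0.28 to 0.35 for Nr1i3, 0.22 to 0.23 for Oit3, 0.28 to 0.35 for Plin3, 0.25 to 0.32 for Slc40a1 and 0.22 to 0.24 for Ssr1 among genes that rose. It was −0.56 to −0.39 for Apoa4, −0.54 to −0.42 for Asl, −0.30 to −0.21 for Cd3d, −1.06 to −0.80 for Eif4ebp3, −0.26 to −0.25 for H2-D1, −0.34 to −0.27 for Il18, −0.30 to −0.23 for Pnpla2, −0.27 to −0.23 for Rpia and −0.24 to −0.18 for Tm7sf2 among genes that fell. Of the counts of changed members per list, 2000 values stayed within 1.5 times of the count given and 202 moved, 177 of them counts of 3 or fewer; of the medians 1089 stayed and 12 moved. Of larger counts, beside those given with single samples left out, the floor gave 2 lower integrated stress response genes (4 otherwise), 3 lower periportal genes (5) and 6 higher respiratory chain genes (10, also 6 among genes above noise on all 24 arrays). Pericentral genes higher numbered 3 (against 5) with the floor, with no filter, with the block and with the 12 arrays alone, and the mean of all probes left 2 higher methionine cycle genes (4). Dim probes limit what the arrays show of genes such as Fasn, Cpt1a and Hspa5.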
